A study of Mus musculus with 6 samples.

Results

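The Marcks family comprises Marcksl1, Marcks and Basp1, which encode proteins of the inner face of the plasma membrane and are grouped here as membrane-actin linkers. Its members were taken by gene name from the deposited tables, where all 3 of 3 names were found among 55849 genes, and all 3 had enough counts to be tested. RNA was extracted from the descending colon of Muc2-/- mice and of wild-type C57BL/6 mice, all 12 weeks old and given no treatment, and polyadenylated RNA was sequenced in 3 libraries per genotype. Muc2 encodes the gel-forming mucin of colonic mucus, and mice without it develop chronic colitis. The labels describe neither the Muc2 allele nor the background of the mutants, nor how many animals each library holds. P-values therefore measure the spread between these libraries. The series title names filamentous actin, sphingolipid metabolism and the epithelial barrier, and the comparison asks which transcripts of this membrane-actin family differed in the mutant colon. The members were chosen by name, with the family selected on the read counts of the same comparison, in which Marcksl1 had already stood out, so the differences of its members between genotypes are given as descriptions and support nothing further.

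MARCKS and its smaller relative MARCKSL1 are anchored in the membrane by a myristoyl group on the glycine that follows the initiator methionine and by a stretch of basic residues called the effector domain. This domain binds the membrane lipid PIP2, actin filaments and calmodulin, and phosphorylation of its serines by protein kinase C releases the protein from the membrane. BASP1 is a related membrane protein, best known from growing nerve endings, that is also myristoylated and binds PIP2 and calmodulin, without the effector domain of the other members. Marcksl1 is known from brain and macrophages, Marcks is expressed in most tissues, and Basp1 is abundant in neurons.

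The coding sequences show what the members share. The first 30 coding bases, 5′ to 3′ from the GENCODE M21 transcripts (GRCm38), are printed with the first 2 codons, the start codon and the codon of the myristoylated glycine, in capitals.
Marcksl1: ATGGGCagccagagctctaaggctccccgg
Marcks: ATGGGTgcccagttctccaagaccgcagcg
Basp1: ATGGGAggcaagctgagcaagaagaagaag
The second codon read glycine in all 3 genes. The 75-base in-frame window in which the coding sequences of Marcksl1 and Marcks were most alike is shown because it falls in the effector domain, with bases identical between them in capitals.
Marcksl1: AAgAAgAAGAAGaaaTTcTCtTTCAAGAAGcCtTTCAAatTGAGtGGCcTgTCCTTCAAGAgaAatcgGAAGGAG
Marcks: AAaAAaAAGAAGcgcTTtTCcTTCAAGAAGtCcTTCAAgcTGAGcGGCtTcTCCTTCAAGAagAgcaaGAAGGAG
The window spans codons 87 to 111 of Marcksl1 and codons 146 to 170 of Marcks. In it 55 bases (73.3%) were identical and 19 of 25 codons encoded the same amino acid, with 10 lysine codons in Marcksl1 and 11 in Marcks, and 3 serine codons in Marcksl1 and 5 in Marcks. Over the whole transcripts the longest run of bases shared without mismatch was 17 between Marcksl1 and Marcks, 15 between Marcks and Basp1 and 13 between Marcksl1 and Basp1. The table also lists the processed pseudogenes Marcksl1-ps4 and Marcksl1-ps5, which had 0 counts in all 6 libraries.

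In the coordinates of the count table, whose assembly differs from the mm10 build named with it, Marcksl1 (ENSMUSG00000047945) lay on chromosome 4 from 129407374 to 129409778 on the plus strand. Marcks (ENSMUSG00000069662) lay on chromosome 10 from 37009371 to 37014916 on the minus strand, and Basp1 (ENSMUSG00000045763) on chromosome 15 from 25363363 to 25413850 on the minus strand. GENCODE gives Marcksl1 and Marcks a single transcript of 2 exons each, with 600 and 927 coding bases, and Basp1 a main transcript of 2 exons with 678. No annotated gene overlapped any of them. The nearest gene with sizeable counts was Hdac1, a histone deacetylase gene on the opposite strand that ends 119 bases from Marcksl1. Its log2 fold change was 0.25 (edgeR adjusted p = 0.689).

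Total counts lay between 16627761 and 17465636 in Muc2-/- and between 16395432 and 20336459 in wild-type libraries. Muc2 transcripts were counted in every library, at 757 to 1021 CPM (counts scaled to a common library size) in Muc2-/- and 2480 to 6977 CPM in wild-type, with no overlap of the groups. The first principal component held 51.6% of the variance and had Muc2-/- 2 and wild-type 1 at its ends. Mitochondrially encoded genes took 1.04% of the counts in Muc2-/- 2 and 8.98% in wild-type 1, against 3.30% to 5.30% in the other libraries. The sample titles name crypts, whereas the growth and extraction steps name tissue. Markers of smooth muscle summed to 2401 to 4313 CPM in Muc2-/- and 5594 to 19821 CPM in wild-type, so muscle RNA was present in all 6 libraries.

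Marcksl1 was several times higher in Muc2-/- colon. In FPKM, counts scaled to gene length and library size, it stood at 76.7, 144 and 147 in Muc2-/- 1, 2 and 3, and at 21.7, 15.0 and 16.4 in wild-type 1, 2 and 3. The lowest Muc2-/- library was 3.54 times the highest wild-type library. Muc2-/- 1 lay well below the other Muc2-/- libraries, whereas the wild-type libraries lay close together. Means were 122 ± 39.6 FPKM in Muc2-/- and 17.7 ± 3.52 FPKM in wild-type (SD, n = 3 each), a ratio of 6.91. The raw counts, 2081, 3426 and 3798 in Muc2-/- and 648, 470 and 543 in wild-type, did not overlap either. At its mean FPKM Marcksl1 exceeded 96.5% of the tested genes in Muc2-/- and 82.5% in wild-type. The log2 fold change, Muc2-/- over wild-type, was 2.76 (SE 0.31), and 106 of 16107 tested genes had a larger one.

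Marcks, the founding member, differed far less. It stood at 31.2, 31.6 and 29.2 FPKM in Muc2-/- 1, 2 and 3, and at 21.2, 20.9 and 25.7 FPKM in wild-type 1, 2 and 3. The groups did not overlap, but wild-type 3 came close to the Muc2-/- libraries. Means were 30.6 ± 1.28 FPKM in Muc2-/- and 22.6 ± 2.66 FPKM in wild-type (SD, n = 3 each), a ratio of 1.36. Its raw counts did overlap, with 2133, 1899 and 1907 in Muc2-/- and 1598, 1649 and 2142 in wild-type. Scaled to library totals alone they were 110 to 122 CPM in Muc2-/- and 91.5 to 105 CPM in wild-type. The log2 fold change was 0.42 (SE 0.17), and 0.24 without composition factors, a scaling that also moved the median of all tested genes to -0.20 from the usual -0.01. Marcks was the steadiest of the members, with an SD of 4.16% of its mean in Muc2-/- and 11.8% in wild-type.

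Basp1 was the least abundant member and varied most among wild-type libraries. It stood at 4.80, 3.95 and 4.93 FPKM in Muc2-/- 1, 2 and 3, and at 11.8, 6.13 and 2.78 FPKM in wild-type 1, 2 and 3. The wild-type values spanned the Muc2-/- values on either side, with a 4.24-fold range in wild-type against 1.25-fold in Muc2-/-. Counts behind these values were low, 163, 118 and 160 in Muc2-/- and 440, 240 and 115 in wild-type. Means were 4.56 ± 0.531 FPKM in Muc2-/- and 6.89 ± 4.54 FPKM in wild-type (SD, n = 3 each). The log2 fold change of -0.63 (SE 0.49) rested on wild-type 1. Without that library it was 0.021, and without wild-type 3 it was -1.003.

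**Figure D1:**
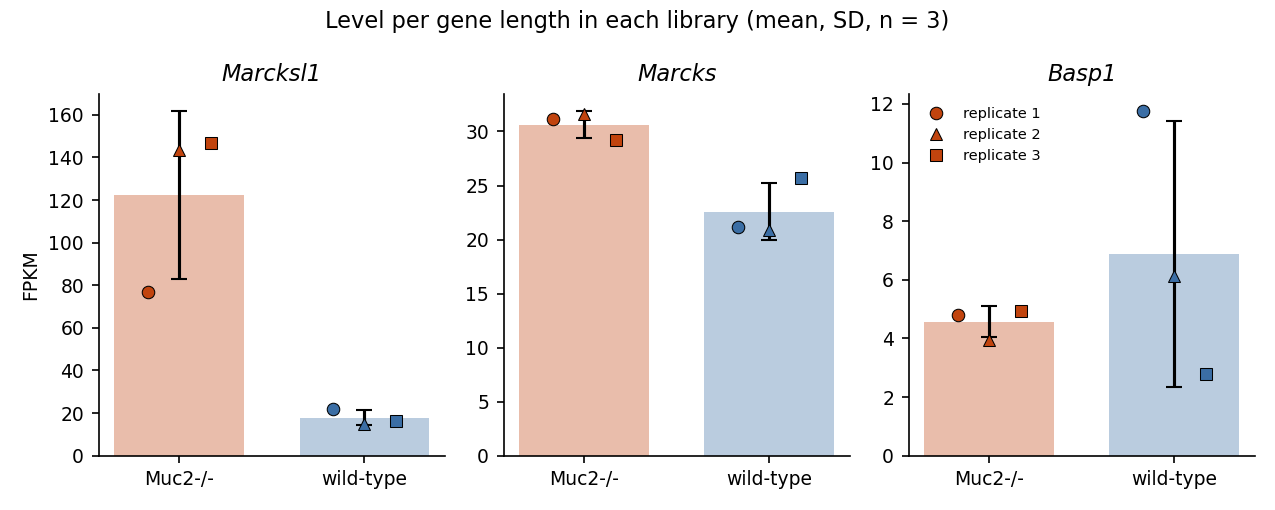
FPKM of Marcksl1, Marcks and Basp1 in each library, on linear axes with a separate scale per gene. Bars are group means with SD (n = 3), and symbols are libraries by replicate number. Marcksl1 lies between 76.7 and 147 FPKM in Muc2-/- and between 15.0 and 21.7 FPKM in wild-type, Marcks is separated narrowly, and the Basp1 groups overlap.

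In the fit of edgeR's quasi-likelihood model over all genes, 1 of the 3 members, Marcksl1, was called higher at an adjusted p under 0.05, as were 0.106% of the 16107 tested genes, and 0 of 3 were called lower, as were 0.0186% of those genes. In either direction edgeR called 0.124%. CPM of the groups did not overlap for 2 of 3 members, Marcksl1 and Marcks, both higher in Muc2-/-, as for 28.5% of all tested genes in either direction and 13.3% higher in Muc2-/-. Nothing is read from these counts, since the members were chosen with this comparison known. The call of Marcksl1 (edgeR adjusted p = 0.0324) was lost when Muc2-/- 2 (0.0631), Muc2-/- 3 (0.122), wild-type 1 (0.203) or wild-type 2 (0.159) was left out, while its log2 fold change stayed between 2.63 and 3.01. Over all alternatives, DESeq2 included, its adjusted p ran from 2.29e-14 to 0.203, and 10 of 18 alternatives called it.

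The order of the members by FPKM differed between the genotypes. In every Muc2-/- library Marcksl1 was highest, then Marcks, then Basp1. In wild-type 2 and 3 Marcks was highest, and in wild-type 1 Marcksl1 and Marcks were nearly equal. The ratio of Marcksl1 to Marcks was 2.46, 4.55 and 5.02 in Muc2-/- 1, 2 and 3, and 1.02, 0.719 and 0.639 in wild-type 1, 2 and 3. In wild-type the ranges of Marcksl1 (15.0 to 21.7 FPKM) and Marcks (20.9 to 25.7 FPKM) overlapped, so their order there did not exceed the spread between libraries. Basp1 was the lowest in all 6 libraries, although in wild-type 1 Marcks was only 1.80 times Basp1.

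The summed level of the family followed Marcksl1. The 3 genes together reached 113, 179 and 181 FPKM in Muc2-/- 1, 2 and 3, and 54.7, 42.0 and 44.8 FPKM in wild-type 1, 2 and 3. Means were 158 ± 38.9 FPKM in Muc2-/- and 47.2 ± 6.63 FPKM in wild-type (SD, n = 3 each). Of the difference of 110.4 FPKM, Marcksl1 made up 105 FPKM and Marcks 8.06 FPKM, while Basp1 contributed -2.33 FPKM. The share of Marcksl1 in the sum was 76.5% ± 7.27 in Muc2-/- and 37.3% ± 2.08 in wild-type. That of Marcks was 20.5% ± 6.27 in Muc2-/- and 48.6% ± 9.26 in wild-type, and that of Basp1 3.07% ± 1.07 in Muc2-/- and 14.1% ± 7.68 in wild-type.

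**Figure D2:**
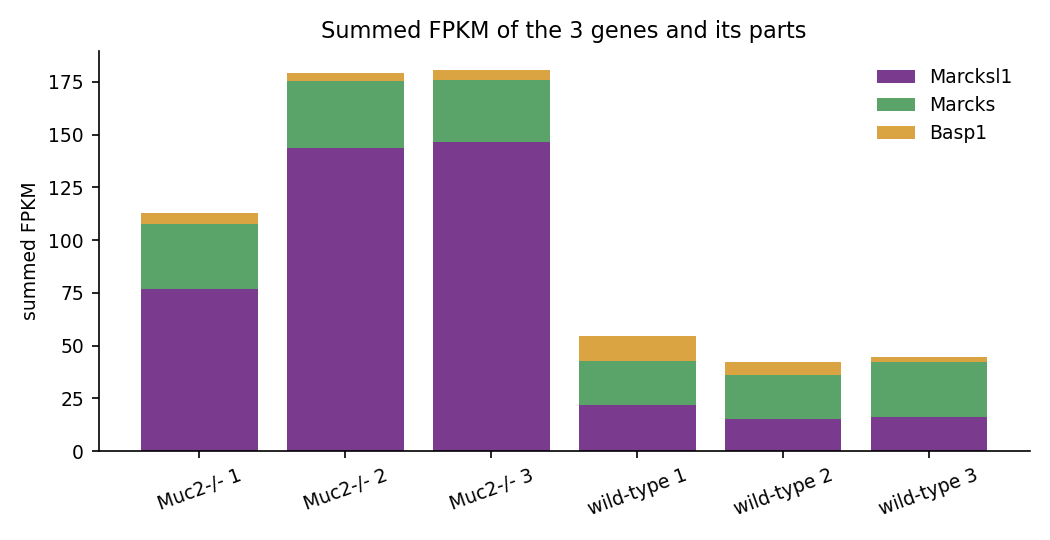
Summed FPKM of the 3 genes in each library, stacked by gene on a linear axis. The Muc2-/- libraries reach 113 to 181 FPKM and the wild-type libraries 42.0 to 54.7 FPKM, and the Marcksl1 part accounts for most of the gap.

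Among 10784 other protein-coding genes at 5 CPM or more, the pattern of Marcksl1 over the 6 libraries was most like that of Il18bp, which encodes the soluble antagonist of interleukin-18, then of Ly6a (the surface antigen Sca-1), Pde9a (a cyclic GMP phosphodiesterase) and Nrg1 (the growth factor neuregulin 1). Likeness was the root mean square difference of log2 CPM, each gene centred on its mean. The genes near each member were picked by this difference over the same libraries. A similar order of libraries therefore follows from the choice, and the values given only illustrate it. The difference was 0.35, 0.38, 0.39 and 0.41 for these genes, where Marcksl1 itself deviated from its own mean by 1.40. Il18bp had 15.4, 28.9 and 38.8 CPM in Muc2-/- 1, 2 and 3, against 6.43, 3.28 and 6.44 CPM in wild-type, so Muc2-/- 1 was the lowest mutant library there too. In Nrg1 it was again the lowest, with 8.22, 13.1 and 19.7 CPM in Muc2-/- 1, 2 and 3, against 2.49, 3.39 and 1.86 CPM in wild-type.

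The genes most like Marcks were Atp6v1a, a subunit of the vacuolar proton pump, Arhgef10l, a guanine nucleotide exchange factor, Cdc5l, a splicing factor, and Cep152, a centrosome protein. Their distances were 0.04 to 0.05, against a deviation of 0.23 for Marcks itself. Here too the shared order of libraries follows from how the genes were picked. Atp6v1a, for example, had 114, 113 and 111 CPM in Muc2-/- 1, 2 and 3, and 79.6, 75.7 and 97.1 CPM in wild-type 1, 2 and 3, with wild-type 3 nearest the mutants as in Marcks. The genes most like Basp1 were Fam219a, Pde4b (a cyclic AMP phosphodiesterase), Fmnl3 (an actin-nucleating formin) and Loxl2 (a collagen cross-linking oxidase), at distances of 0.10 to 0.16 against 0.65 for Basp1 itself. Fam219a had 6.97, 5.62 and 8.22 CPM in Muc2-/- 1, 2 and 3, and 16.8, 9.90 and 4.34 CPM in wild-type 1, 2 and 3, so that, as in Basp1, wild-type 1 was highest and wild-type 3 lowest of all libraries. The members were not each other's nearest genes. By distance from Marcksl1, Marcks ranked 1662 and Basp1 8640 in the same comparison.

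**Figure D3:**
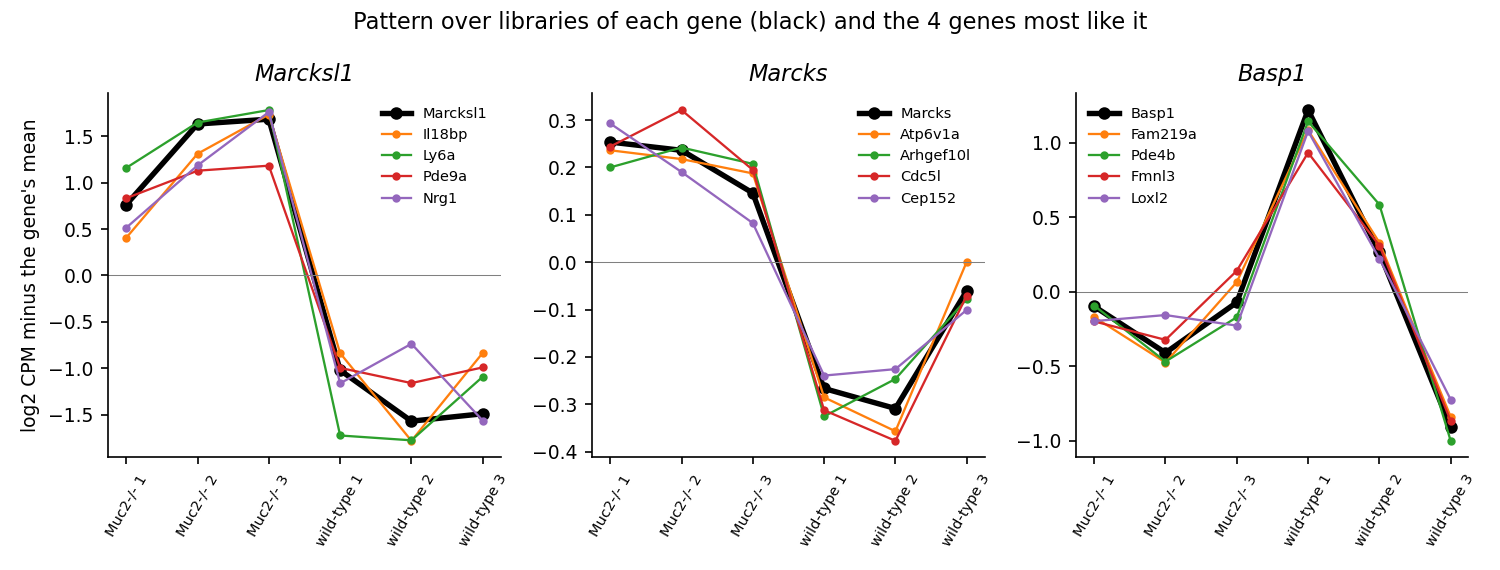
Log2 CPM minus each gene's mean over the 6 libraries for Marcksl1, Marcks and Basp1 (black) and the 4 genes nearest to each (colours). Lines join the values of a gene and imply no order of libraries, and the vertical scales differ. Marcksl1 separates the genotypes with Muc2-/- 1 lowest among the mutants, whereas Basp1 spreads most among the wild-type libraries.

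Marker lists of several cell types moved between the genotypes beside these genes. In bulk tissue, fewer cells of a type and less RNA per cell cannot be told apart. Of 12 marker lists, 9 had summed levels that did not overlap between the groups. Among single genes 28.5% of all tested did not overlap. No such share was computed for sums over lists, so nothing is read from this count. Markers of epithelium, among them Epcam and Krt20, summed to 24495 to 40418 CPM in Muc2-/- and 11075 to 20167 CPM in wild-type, with all 9 markers positive in log2 fold change (median 0.76). Dividing cell markers summed to 237 to 356 CPM in Muc2-/- and 155 to 230 CPM in wild-type (8 of 8 positive, median 0.81). Macrophage markers summed to 236 to 343 CPM in Muc2-/- and 103 to 170 CPM in wild-type (10 of 10 positive, median 1.00). Neutrophil markers summed to 405 to 785 CPM in Muc2-/- and 77.3 to 232 CPM in wild-type. Most of this sum was 1 gene, Ly6g, a member of the Ly6 family, at 611, 396 and 544 CPM in Muc2-/- 1, 2 and 3 and 133, 75.8 and 231 CPM in wild-type 1, 2 and 3. In every wild-type library S100a9, Retnlg and Cxcr2 had 0 counts, and S100a8 had 3 counts in wild-type 2 and 0 in the others. S100a8 and S100a9 passed the filter on low counts through the Muc2-/- libraries. Plasma cell markers summed to 3531 to 5139 CPM in Muc2-/- and 608 to 866 CPM in wild-type (5 of 5 positive, median 2.30), of which edgeR called Igha and Jchain higher. These lists moved in the direction of Marcksl1, and their part in its difference was not tested. T and NK cell markers (11.7 to 29.7 CPM in Muc2-/-, 5.79 to 16.1 CPM in wild-type, 7 of 8 tested positive, median 1.31) and B cell markers (12.1 to 67.6 CPM in Muc2-/-, 4.53 to 166 CPM in wild-type, 0 of 8 positive, median -0.47) overlapped between the groups. The direction of the B cell list rested on wild-type 1, without which its median was 2.44.

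Lists of the muscle wall and its nerves moved the other way. Markers of enteric neurons, such as Elavl4 and Tubb3, summed to 77.3, 96.1 and 63.2 CPM in Muc2-/- 1, 2 and 3, and to 462, 284 and 108 CPM in wild-type 1, 2 and 3 (0 of 10 positive, median -2.14). Enteric glia markers summed to 5.93 to 15.6 CPM in Muc2-/- and 18.5 to 67.3 CPM in wild-type (0 of 5 positive, median -2.30). Smooth muscle markers, given above, had a median of -1.70 (0 of 9 positive). Within wild-type, Basp1 and these 3 lists were highest in wild-type 1 and lowest in wild-type 3. The fibroblast and B cell lists had the same order. So had the first principal component (89.9, 55.4 and 17.2 in wild-type 1, 2 and 3) and the mitochondrial share of counts (8.98%, 5.30% and 3.49%). That order is therefore not particular to these lists. Among Muc2-/- libraries Basp1 was lowest in Muc2-/- 2 (7.80 CPM), where the neuron and glia lists were highest. In wild-type 3 Basp1 (5.48 CPM) lay below every Muc2-/- library, whereas the neuron, glia and muscle sums lay above every one. The B cell sum in wild-type 3 (4.53 CPM) also lay below every Muc2-/- library. The fibroblast sum there (681 CPM) lay within the Muc2-/- range. Among Muc2-/- libraries the B cell and fibroblast sums were lowest in Muc2-/- 2, as was Basp1. The mean CPM of Basp1 was 1.55 times higher in wild-type. That ratio was 3.61 for neuron, 4.10 for glia, 3.45 for muscle, 1.42 for fibroblast and 1.43 for B cell markers. The B cell ratio rested on wild-type 1, with sums of 166, 11.7 and 4.53 CPM in wild-type 1, 2 and 3. In Muc2-/- 1, 2 and 3 the B cell sums were 47.5, 12.1 and 67.6 CPM. The part of these lists in the spread of Basp1 was not tested. Fibroblast markers (595 to 806 CPM in Muc2-/-, 681 to 1375 CPM in wild-type, 1 of 7 positive, median -0.54) overlapped between the groups, and endothelial markers (46.8 to 58.9 CPM in Muc2-/-, 65.4 to 93.7 CPM in wild-type, 0 of 8 positive, median -0.41) did not. Except for Igha and Jchain, edgeR called no gene of the 12 lists, where it called 0.124% of all tested genes. DESeq2, which called 11.5% of all genes, called lower 9 of 10 neuron, 4 of 5 glia, 8 of 9 smooth muscle and 3 of 7 fibroblast genes. It called higher 4 of 5 tested neutrophil, 3 of 5 plasma cell, 3 of 10 macrophage, 2 of 9 epithelial, 2 of 8 dividing cell and 1 of 8 tested T and NK cell genes, and no endothelial or B cell gene. Nothing is read from the neutrophil share, since S100a8 and S100a9 were tested only through their counts in Muc2-/-.

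**Figure D4:**
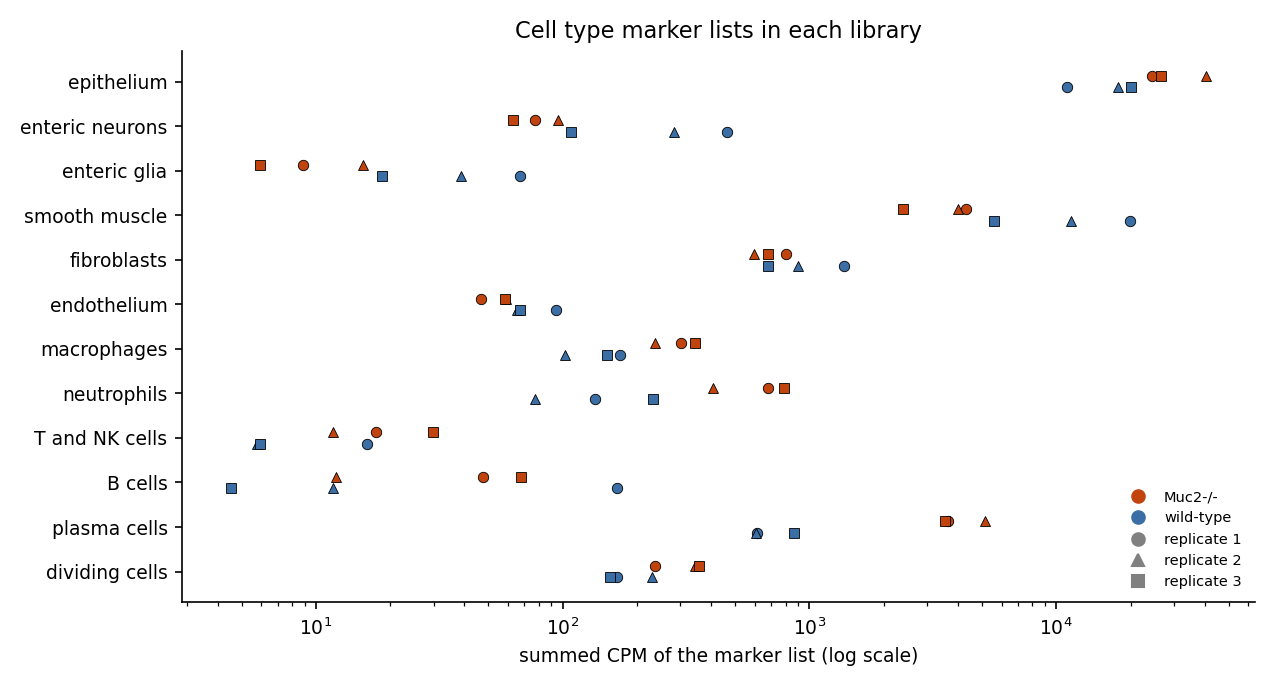
Summed CPM of each cell type marker list in each library, on a log axis. Muc2-/- libraries are drawn above wild-type libraries in each row, and symbols give the replicate number. Epithelial, macrophage, neutrophil, plasma cell and dividing cell sums are higher in all Muc2-/- libraries, and neuron, glia, smooth muscle and endothelial sums are lower. Most of the neutrophil sum is Ly6g.

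Genes related to the family were examined in 5 lists, 78 of whose 80 genes in the table had enough counts to be tested. At an adjusted p under 0.05 edgeR called 0 of 78, the lowest adjusted p being 0.103. At an unadjusted p under 0.05 there were 18 (23.1%), against 21% of all tested genes, and DESeq2 called 8 (10.3%), against 11.5% of all genes it tested. Of these 8 genes 1 was higher and 7 were lower, where DESeq2 called 4.09% of all genes higher and 7.41% lower. The shares in either direction lie near the background, and nothing is read from the split of so few genes by direction. Of the 78, 21 (26.9%) did not overlap between the groups, against 28.5% of all tested genes.

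Of 12 tested genes grouped here as kinases of MARCKS proteins, atypical protein kinase C isoforms included, 5 had a positive log2 fold change. The median was -0.10, against -0.01 for all tested genes. Whether each of these kinases acts on MARCKS proteins was not tested. edgeR called 0 in either direction, and DESeq2 called 1 lower, the protein kinase C isoform Prkcq, named after its values were seen (log2 fold change -2.11, DESeq2 adjusted p = 0.042). Prkcd, the protein kinase C isoform with the highest mean FPKM of the list, stood at 63.4, 46.9 and 55.8 FPKM in Muc2-/- 1, 2 and 3, and at 24.2, 41.7 and 61.2 FPKM in wild-type 1, 2 and 3 (log2 fold change 0.38, SE 0.33). Its groups overlapped. Prkci, an atypical isoform, averaged 17.6 ± 0.921 FPKM in Muc2-/- and 17.2 ± 1.03 FPKM in wild-type (SD, n = 3 each).

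The list of calmodulins and neuron-type protein kinase C substrates fell into parts that lay on opposite sides of 0 (10 tested, 4 positive, median -1.07). edgeR called 0 in either direction, and DESeq2 called 2 lower, Gap43 and Akap12. Calm2, a calmodulin gene, stood at 508, 671 and 501 FPKM in Muc2-/- 1, 2 and 3, and at 407, 430 and 397 FPKM in wild-type 1, 2 and 3 (log2 fold change 0.42, SE 0.23). It did not pass in edgeR or DESeq2 (adjusted p = 0.331 and 0.157), though its groups did not overlap. Gap43, a growth cone protein often grouped with MARCKS and BASP1 and named after its values were seen, stood at 2.80, 2.83 and 1.95 FPKM in Muc2-/- 1, 2 and 3, and at 18.7, 10.4 and 4.81 FPKM in wild-type 1, 2 and 3. Its log2 fold change was -2.20 (SE 0.50, edgeR adjusted p = 0.103, DESeq2 adjusted p = 9.76e-04). Within wild-type it was highest in wild-type 1 and lowest in wild-type 3, as were Basp1 and the neuron, glia, smooth muscle, fibroblast and B cell lists. The first principal component and the mitochondrial share of counts had that order too. Akap12, a scaffold protein that binds protein kinase C and was also named after its values were seen, had a log2 fold change of -1.72 (SE 0.53, edgeR adjusted p = 0.132, DESeq2 adjusted p = 0.0186).

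Genes of PIP2 synthesis and turnover, the lipid to which the effector domain binds, had a median of -0.22 (24 tested, 8 positive). edgeR called 0 in either direction. DESeq2 called 2 lower, both named after their values were seen: the phospholipase C genes Plcb4 (log2 fold change -1.54, DESeq2 adjusted p = 0.0069) and Plcb1 (-1.57, 0.0242). Plcb3, a phospholipase C that cleaves PIP2, averaged 41.4 ± 7.43 FPKM in Muc2-/- and 37.5 ± 15.9 FPKM in wild-type, and Pip4k2c, a phosphoinositide kinase, 25.2 ± 3.19 FPKM in Muc2-/- and 23.3 ± 5.12 FPKM in wild-type (SD, n = 3 each). Enzymes of myristoylation and phosphatases had a median of 0.12 (11 tested, 8 positive, 0 called in either direction by edgeR or DESeq2). The phosphatase genes Ppp2cb and Ppp1ca had log2 fold changes of 0.12 (SE 0.21) and 0.21 (SE 0.20).

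Other proteins that link the membrane to actin had a median of -0.16 (21 tested, 6 positive). edgeR called 0 in either direction, and DESeq2 called Epb41l4b higher and 2 genes lower. The lower ones, named after their values were seen, were Fermt2, an integrin-binding kindlin (log2 fold change -1.93, DESeq2 adjusted p = 0.00124), and Rdx, which encodes radixin (-1.02, 0.0146). Ezr, which encodes the microvillus linker ezrin, stood at 346, 142 and 347 FPKM in Muc2-/- 1, 2 and 3, and at 234, 342 and 346 FPKM in wild-type 1, 2 and 3, with Muc2-/- 2 far below the others. Slc9a3r1, its scaffold partner, averaged 226 ± 56.6 FPKM in Muc2-/- and 284 ± 87.3 FPKM in wild-type (SD, n = 3 each). Without Muc2-/- 2 the median of the list was 0.16. Epb41l4b, a protein of the band 4.1 family named after its values were seen, had the highest log2 fold change of the 78 genes tested in the 5 lists, 0.93 (SE 0.24). It stood at 46.6, 46.8 and 48.3 FPKM in Muc2-/- and 18.3, 23.4 and 31.8 FPKM in wild-type. It did not pass in edgeR (adjusted p = 0.104) and passed in DESeq2 (adjusted p = 0.00533).

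**Figure D5:**
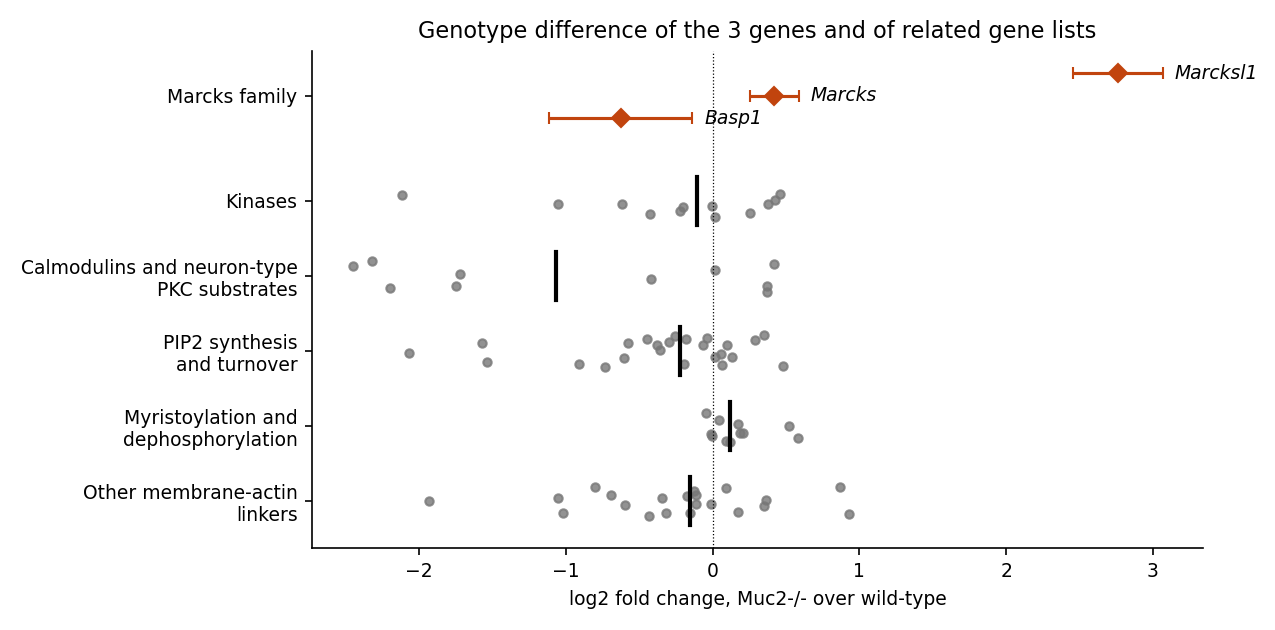
Log2 fold change, Muc2-/- over wild-type, of the 3 genes (diamonds with SE) and of every tested gene in 5 lists of related genes (grey points, with the list median as a black bar). The related genes lie between -2.45 and 0.93 and Marcksl1 lies at 2.76.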

How the data were processed

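The members and gene lists were chosen with earlier results of these data known. The authors deposited whole-number counts per gene, not normalized, and FPKM. Per the submitters' processing notes the tools were featureCounts 1.5.0-p3, HISAT2 2.0.5, DESeq2 1.20.0 and StringTie 1.3.3b, with mm10 as the build, and no role or order is named. The deposited FPKM equal counts over gene length and over the library total times a factor within 0.125% of the median-of-ratios factor. No source used here states a strand setting for the counting.

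Genotypes were compared on the counts by edgeR 4.0.16 under R 4.3.3 (TMM, at least 10 counts by the default filter and at least 15 in total, genotype alone, quasi-likelihood, Benjamini-Hochberg over 16107 genes, threshold 0.05), and the procedure was tested on simulated counts. CPM use the TMM factor, and log2 CPM a prior count of 2. Alternatives used DESeq2 1.42.0, limma 3.58.1, other scalings and filters, and libraries left out. Chi-square over genes between replicates was 25.0 to 148 for each degree of freedom, and every library was kept. Named were the members, up to 3 called genes of each list of related genes (where none was called, the 2 tested genes highest in mean FPKM), and the 4 genes most like each member. The result for 1 gene under this rule is not reported here. Others were named after their values were seen.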

Additional observations from a re-analysis of the deposited data

How the results depend on the processing

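Marcksl1 was higher in Muc2-/- in all 18 alternatives (log2 fold change 2.56 to 3.01). Its call ended without composition factors (2.56, adjusted p = 0.0545), in limma on log2(FPKM + 1) (2.68, 0.107) and log2(FPKM + 0.1) (2.74, 0.0743) without a filter, in 4 of 6 fits with a library left out (range over all 6: 2.63 to 3.01), and without both wild-type 1 and Muc2-/- 2 (2.83, 0.126), a choice made after seeing the data. Marcks stayed positive (0.24 to 0.51) and uncalled in all 18. Basp1 ran from -1.003 to 0.021 with a library left out, turned to 0.021 without wild-type 1 and to 0.12 without both wild-type 1 and Muc2-/- 2, and was uncalled in all 18. The cause of these shifts was not tested.

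Counts of called genes, 17 higher and 3 lower, were 22 and 5 with RLE factors, 7 and 1 without composition factors, 384 and 815 without a filter, 659 and 1193 in DESeq2, 11 and 2 in limma-voom, 3 and 0 with log2(FPKM + 1), 4 and 0 with log2(FPKM + 0.1), and 37 and 9 with log2(FPKM + 1) at 1 FPKM in 3 libraries. With a library left out they ran from 0 to 272 higher and from 0 to 954 lower, the highest without wild-type 3 and 0 in either direction without wild-type 2, and they were 1 and 0 without wild-type 1 and Muc2-/- 2 together. With the replicate number as a block they were 225 and 448, and Marcksl1 had 2.73 (adjusted p = 0.0135). Deviations of same-numbered libraries correlated at 0.0937, 0.281 and 0.0606 for numbers 1, 2 and 3. Muc2-/- 1 and Muc2-/- 2 correlated best with the wild-type library of the same number, and Muc2-/- 3 marginally better with wild-type 1 (0.0636). These values do not settle whether the numbers pair the samples, and the main fit used no pairing.

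Medians of lists kept their direction in 278 of 289 refits. The B cell median was 0.86 in limma-voom, 0.040, 0.40 and 0.26 in the 3 FPKM fits, 0.42 under the replicate block, and -1.01 to 2.44 with a library left out. The kinase median was 0.028 on filtered FPKM and -0.14 to 0.016 with a library left out. The median of myristoylation and phosphatase genes was -0.070 without composition factors, and that of other linkers -0.35 to 0.16 with a library left out. Among lists that kept their direction, the calmodulin and substrate median (-1.07) was -0.43 at 1 CPM in 3 libraries and -0.39 and -0.17 on log2(FPKM + 1) without and with a filter. On log2(FPKM + 1) the plasma cell median (2.30) was 1.02, the glia median (-2.30) -1.12 and the T and NK cell median (1.31) 0.39. With the filter, which a gene can pass through the Muc2-/- libraries alone, the neutrophil median (1.95) was 4.61 over 3 genes. The plasma cell median was 1.82 without wild-type 2. The PIP2 median (-0.22) was -0.41 without composition factors and -0.33 to -0.091 with a library left out, that of fibroblasts (-0.54) -0.76 to -0.13 and that of T and NK cells 0.67 to 2.07. Low counts limit Basp1, which had 115 to 440 reads per library, and intervals on counts would cover counting error only.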
